A study of Mus musculus with 24 samples.

Results

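Hpca, Ncald, Hpcal4, Vsnl1, Calm2, Calm3, Nrgn, Camk2a and Ppp3r1 are 9 of the 33000 genes in a count table of mouse frontal cortex. They encode neuronal calcium sensors, calmodulin and proteins that calmodulin works with. They were chosen by their symbols as calcium-binding or calcium-signalling genes of neurons, with earlier results on the contrast between GFAP-IL6 and WT mice known, so their differences between genotypes are given as a description without a test. The RNA was of 3-month-old mice, 3 of them WT and 3 homozygous for GFAP-IL6. In GFAP-IL6 mice the astrocyte promoter of Gfap drives an Il6 transgene, so the cytokine is made by astrocytes and not by the neurons that express most of these genes. Each mouse gave 4 libraries by 3'Pool-seq, a method that reverse transcribes polyA RNA with indexed primers, pools the samples and sequences the 3' ends of the transcripts. In sets A and B alike, 2 ng or 1 ng of amplified cDNA went into tagmentation, the transposase step that cuts the cDNA and adds adapters. How the sets A and B differ is not given in the labels. The authors report repeat library preparations of the same samples, without naming them A and B. The 24 libraries held 1524165 to 12256374 counted reads each.

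Calcium that enters a neuron through channels and receptors is bound by proteins with EF-hand motifs, which change shape and act on other proteins. Calmodulin is present in all cells, while neuronal calcium sensors such as hippocalcin carry a myristoyl group and move to membranes when calcium rises. Neurogranin holds calcium-free calmodulin in dendritic spines. Calmodulin with calcium activates CaMKII, a kinase required for long-term potentiation, and calcineurin, a phosphatase that acts in long-term depression.

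The proteins of these families resemble each other closely, and their genes can nevertheless be told apart by their bases. The proteins translated from Calm2 and Calm3 in GENCODE vM21 were identical over 149 residues, whereas the coding sequences were 82.7% identical. The first 30 coding bases of both genes show this, with the positions at which they differ in capitals:
Calm2: atggctgaccaActgactgaAgaGcagatt
Calm3: atggctgaccaGctgactgaGgaAcagatt
Among the sensors, the hippocalcin and neurocalcin delta proteins (Hpca and Ncald) were 88.1% identical, and those of Hpcal4 and Vsnl1 (visinin-like 1) 89.5%, while Hpca and Vsnl1 were 67.4% identical. Their first 30 coding bases are given below with the bases that differ from Hpca in capitals:
Hpca: atgggcaagcagaacagcaagctgcggcca
Ncald: atgggGaaAcagaacagcaagctgcgCccT
Hpcal4: atgggGaaAAaCaacagcaagctgGCCccC
Vsnl1: atgggGaaAcagaaTagcaaActgGCCcca
By the method, reads come mainly from the other end of the transcripts. Read positions in these 9 genes were not examined. Of the last 300 nt of each of the 9 genes, none had a match of at least 100 nt at 97% identity or more in another gene. The closest match of at least 100 nt, in Hpca, was 77.8% identical. Matches shorter than 100 nt, which can still be as long as a read, were not counted. Sequence further from the transcript ends, where reads can also start, was not searched.

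On mm10, the mouse genome build, Hpca (ENSMUSG00000028785.10) lies on the minus strand of chromosome 4 from 129111570 to 129122036, and Hpcal4 (ENSMUSG00000046093.7) on the plus strand of the same chromosome from 123183227 to 123194701. Vsnl1 (ENSMUSG00000054459.6) lies on chromosome 12 from 11325242 to 11436613, and Ncald (ENSMUSG00000051359.12) on chromosome 15 from 37366175 to 37792570. Calm2 (ENSMUSG00000036438.10) lies on chromosome 17 from 87433412 to 87446935, and Calm3 (ENSMUSG00000019370.10) on chromosome 7 from 16915379 to 16924114. Nrgn (ENSMUSG00000053310.9) lies on chromosome 9 from 37544492 to 37552904, and Ppp3r1 (ENSMUSG00000033953.10) on chromosome 11 from 17159263 to 17200375. Camk2a (ENSMUSG00000024617.14) lies on chromosome 18 from 60925618 to 60988152. In all of these genes most of the last exon is 3' UTR. Exons of Tmem54 and of the antisense gene Gm28221 overlap the last exons of Hpca and Ncald on the other strand. Neither gene had more than 2 counts in any of the 24 libraries.

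Levels are counts scaled to library size (CPM) by the TMM method of edgeR. They are not divided by gene length, since only the 3' ends are sequenced. They are compared within a gene, and between genes only to group or sum them by abundance. The transgene and tissue labels were checked first. Il6 was at 1.59 to 4.23 CPM in the GFAP-IL6 mice and at 0 to 0.26 CPM in the WT mice after the 4 libraries of a mouse were summed, and Gfap at 80.5 to 146.4 against 15.9 to 23.5 CPM. The summed level of 10 neuron markers was 7900 to 8612 CPM in WT and 7423 to 8220 CPM in GFAP-IL6 mice. All 10 were tested, and none was called between genotypes at an adjusted p under 0.05 by edgeR or by DESeq2, or had an unadjusted p under 0.05 in edgeR. Their log2 fold changes of GFAP-IL6 against WT were negative for 9 of the 10, with a median of -0.04. Of the 7 microglia markers, 6 were called higher in GFAP-IL6 mice, where their sum was 333.4 to 440.0 CPM against 219.2 to 241.5 CPM in WT. The tissue pieces also differed. Choroid plexus markers summed to 4035 CPM in WT mouse 3 and to 76.9 to 744.2 CPM in the other 5 mice, and striatal markers to 443.0 CPM in WT mouse 2 against 225.8 to 294.2 CPM.

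The 9 genes differed little between genotypes. Their log2 fold changes of GFAP-IL6 against WT in the summed libraries ran from -0.17 for Hpca to 0.11 for Camk2a, with a median of -0.08 beside -0.0069 over the 14621 genes tested. The value was negative for 7 of the 9 genes and for 51.9% of all genes. In this contrast 1.74% of the genes tested were called higher and 0.0547% lower in GFAP-IL6 mice. In bulk tissue, fewer cells of a type and less RNA per cell cannot be told apart.

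Hpca, which encodes hippocalcin, was at 580.2, 581.1 and 566.4 CPM in WT mice 1 to 3 and at 484.0, 549.4 and 508.4 CPM in GFAP-IL6 mice 1 to 3. The WT mean was 575.9 ± 8.25 CPM and the GFAP-IL6 mean 513.9 ± 33.1 CPM (SD, n = 3 mice each), and the log2 fold change was -0.17 ± 0.08 (SE). Every GFAP-IL6 mouse was below every WT mouse. Hpca was the only one of the 9 genes whose groups did not overlap, and 5.78% of all genes tested were lower in GFAP-IL6 mice without overlap while 8.41% were higher without overlap. The value stayed between -0.21 and -0.13 when any 1 mouse was left out.

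The other sensors overlapped between genotypes. Ncald was at 600.9, 598.2 and 593.5 CPM in the WT mice and at 595.3, 536.0 and 568.6 CPM in the GFAP-IL6 mice, a log2 fold change of -0.08. The WT mice were close together (SD 3.75 CPM), and 1 GFAP-IL6 mouse fell inside their range. Hpcal4 was at 277.3, 298.0 and 257.7 CPM in WT and at 265.3, 279.3 and 312.3 CPM in GFAP-IL6 mice. Vsnl1 was at 1073, 1014 and 943.0 CPM in WT and at 974.6, 1062 and 964.2 CPM in GFAP-IL6 mice. For Hpcal4 and Vsnl1 the means differed by 2.87% and -0.95% of the WT mean, less than the spread between mice.

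Calm2 and Calm3, which encode the same calmodulin protein, also overlapped. Calm2 was at 5310, 4614 and 4463 CPM in the WT mice and at 5244, 4538 and 3765 CPM in the GFAP-IL6 mice, the widest relative spread of the GFAP-IL6 group among the 9 genes (16.4% of the mean). Calm3 was at 980.7, 1119 and 1125 CPM in WT and at 1051, 1034 and 1097 CPM in GFAP-IL6 mice. The Calm2 value depended on single mice and on the method. Its log2 fold change of -0.09 became 0.03 without GFAP-IL6 mouse 3, the lowest of the 6 mice, and -0.01 without WT mouse 1. It was -0.21 without GFAP-IL6 mouse 1, and -0.17 with limma on all 24 libraries.

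Nrgn, which encodes neurogranin, was at 3066, 2768 and 3417 CPM in WT and at 2885, 2998 and 2696 CPM in GFAP-IL6 mice. Its log2 fold change of -0.11 became -0.02 without WT mouse 3, which had the highest Nrgn level and the high choroid plexus sum. Camk2a, the alpha subunit of CaMKII, was at 230.2, 229.5 and 287.2 CPM in WT and at 295.9, 265.6 and 244.8 CPM in GFAP-IL6 mice. WT mouse 3 was again the highest of its group, and the log2 fold change of Camk2a was 0.11 with it and 0.23 without it. Ppp3r1, the regulatory B subunit of calcineurin, was at 565.8, 547.1 and 586.3 CPM in WT and at 542.8, 555.1 and 514.5 CPM in GFAP-IL6 mice. The part of the choroid plexus signal in these values was not tested. Leaving out 1 mouse changed the sign of the small values of Calm2, Calm3, Hpcal4 and Vsnl1, and of none of the other 5 genes.

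**Figure D1:**
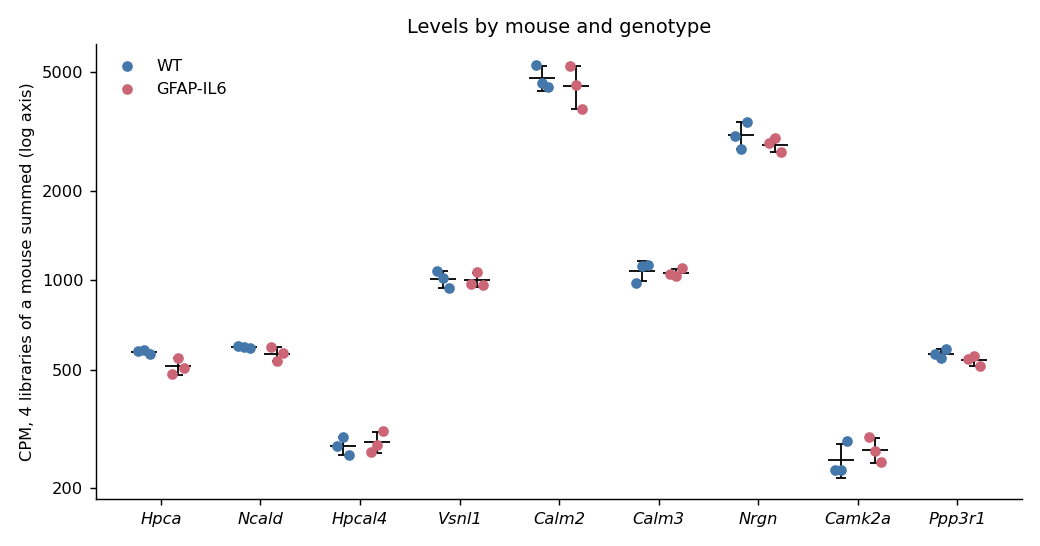
Levels of the 9 genes in 3 WT and 3 GFAP-IL6 mice, in CPM on a log axis, with the 4 libraries of a mouse summed. Points are mice and black bars the mean ± SD. The groups overlap for 8 genes, and for Hpca the GFAP-IL6 mice (484.0 to 549.4 CPM) lie below the WT mice (566.4 to 581.1 CPM).

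Within each of the 4 kinds of library the values of single genes ran somewhat wider. They reached -0.20 ± 0.09 (SE) for Hpca and 0.16 ± 0.11 (SE) for Camk2a in the 1 ng libraries of set A, and 0.15 ± 0.11 (SE) for Camk2a in the 2 ng libraries of set B. The median log2 fold change of the 9 genes between genotypes was -0.04 in the 2 ng libraries of set A, -0.08 in those of set B, and -0.05 and -0.07 in the 1 ng libraries of sets A and B. Of 72 further genes of calcium signalling (other calcium sensors and EF-hand proteins, calmodulin-binding IQ proteins, calmodulin-dependent kinases, calcineurin subunits and regulators, other calmodulin targets, and calcium channels, stores and exchangers), 69 were tested and none was called between genotypes by edgeR or by DESeq2. In edgeR 4 of them had an unadjusted p under 0.05. Their median log2 fold change was -0.04, and 45 of the 69 values were negative.

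The amount of cDNA in the tagmentation reaction went with much larger differences than genotype. With 2 ng, Hpca, Nrgn and Camk2a were lower than with 1 ng in every mouse and in both sets, by 0.41 to 1.02 on the log2 scale. Ppp3r1 and Vsnl1 were higher with 2 ng in set A and slightly lower in set B. Ncald, Hpcal4 and Calm3 differed by less than 0.10 in either set. The contrast was fitted within each set by edgeR's quasi-likelihood test across all genes with the mouse as a block, and adjusted p-values are over all genes tested.

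In set A, 16% of 12225 genes were called higher and 15.9% lower with 2 ng at an adjusted p under 0.05, and in set B 10.6% of 12169 were called higher and 10.7% lower. Of the 9 genes, 4 were called higher and 4 lower in set A, and 1 higher and 7 lower in set B. Abundant genes are called more often at these depths. Among the 653 genes with a mean level at or above that of Camk2a, the lowest of the 9 at 251.1 CPM, 75.7% were called in set A and 68.5% in set B, so 8 of 9 is not a result about these genes. The sizes and directions of the single genes are what the data give. The p-values weigh the difference within a mouse against its spread over the 6 mice. In 3'Pool-seq samples are pooled before amplification and tagmentation, so the 6 libraries of a set and amount may share a reaction. Each amount would then be represented by 2 reactions, and amount and reaction cannot be told apart within a set.

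Hpca had the largest difference of the 9 genes in set A, and Nrgn in set B. In set A the level of Hpca had a lowest, median and highest value of 308.3, 324.5 and 357.8 CPM over the 6 mice with 2 ng, and of 586.9, 678.2 and 743.4 CPM with 1 ng. In set B it was 391.8, 453.3 and 463.1 CPM with 2 ng and 583.4, 677.5 and 708.7 CPM with 1 ng. The libraries of the 2 amounts did not overlap in either set, and all 6 mice had less Hpca with 2 ng. The log2 fold change was -1.02 ± 0.03 (SE) in set A (adjusted p = 1.30e-56, edgeR) and -0.57 ± 0.02 (SE) in set B (adjusted p = 5.53e-39, edgeR). By absolute log2 fold change it ranked 116 of 12225 genes in set A and 340 of 12169 in set B.

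Nrgn behaved alike in the 2 sets. In set A it was at 1869, 2008 and 2404 CPM (lowest, median and highest of 6 mice) with 2 ng and at 3228, 3512 and 3908 CPM with 1 ng. In set B it was at 2087, 2192 and 2622 CPM with 2 ng and at 3276, 3643 and 4047 CPM with 1 ng. Again no 2 ng library reached the level of any 1 ng library. The paired ratio of 2 ng over 1 ng ran from 0.57 to 0.62 over the 6 mice in set A and from 0.58 to 0.65 in set B. The log2 fold changes were -0.78 ± 0.02 (SE; adjusted p = 1.99e-65, edgeR) and -0.68 ± 0.01 (SE; adjusted p = 4.64e-59, edgeR), which ranked 2 and 1 among all genes by p.

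In set A Camk2a was at 163.2, 179.4 and 203.1 CPM with 2 ng and at 243.3, 276.7 and 336.5 CPM with 1 ng. In set B it was at 197.3, 237.1 and 259.3 CPM with 2 ng and at 279.0, 303.7 and 359.4 CPM with 1 ng. All 6 mice were lower with 2 ng in both sets, without overlap. The log2 fold change was -0.62 ± 0.03 (SE) in set A and -0.41 ± 0.03 (SE) in set B (adjusted p = 2.39e-30 and 1.99e-20, edgeR).

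Ppp3r1 went in opposite directions. In set A it was at 706.3, 772.6 and 794.9 CPM with 2 ng and at 505.1, 540.8 and 575.4 CPM with 1 ng, higher in all 6 mice without overlap. In set B it was at 419.2, 453.8 and 486.9 CPM with 2 ng and at 453.4, 474.4 and 539.9 CPM with 1 ng, lower in all 6 mice but with overlapping groups. Set A gave a log2 fold change of 0.48 ± 0.02 (SE; adjusted p = 2.95e-35, edgeR) and set B of -0.07 ± 0.02 (SE; adjusted p = 0.0338, edgeR). The call in set B was lost with DESeq2 (adjusted p = 0.0990) and without WT mouse 1, WT mouse 3 or GFAP-IL6 mouse 1.

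Vsnl1 had the same form at a smaller size. With 2 ng it was at 1095, 1216 and 1300 CPM in set A and at 826.7, 882.2 and 942.8 CPM in set B. With 1 ng it was at 960.9, 995.3 and 1081 CPM in set A and at 870.1, 953.1 and 1018 CPM in set B. Its log2 fold change was 0.26 ± 0.02 (SE; adjusted p = 1.43e-21, edgeR) in set A, higher in 6 of 6 mice, and -0.10 ± 0.02 (SE; adjusted p = 7.65e-06, edgeR) in set B, lower in 6 of 6 mice.

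The calmodulin genes moved little. Calm2 was at 3874, 4667 and 5468 CPM with 2 ng and at 4188, 5035 and 5863 CPM with 1 ng in set A, and at 3222, 3969 and 4623 CPM with 2 ng and 3784, 4607 and 5327 CPM with 1 ng in set B. The groups overlapped because the mice differed, but each mouse was lower with 2 ng in both sets, by a log2 fold change of -0.11 ± 0.01 (SE; adjusted p = 5.84e-10, edgeR) in set A and -0.20 ± 0.01 (SE; adjusted p = 6.51e-26, edgeR) in set B. Calm3 was 0.07 ± 0.02 (SE) higher with 2 ng in set A and lower by a log2 fold change of -0.05 ± 0.02 (SE) in set B, the second of which lost its call with DESeq2 (adjusted p = 0.0602), after thinning to equal totals (adjusted p = 0.262, edgeR) and without GFAP-IL6 mouse 1 or 3. Both Calm3 values passed edgeR's test at an adjusted p under 0.05.

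Ncald and Hpcal4 had the narrowest ranges over the 4 kinds of library. Ncald was higher with 2 ng by 0.09 ± 0.02 (SE; adjusted p = 0.00111, edgeR) in set A, in 5 of 6 mice, and by 0.08 ± 0.02 (SE; adjusted p = 0.00260, edgeR) in set B, in 6 of 6 mice. The Ncald call in set B was lost when libraries were thinned to equal totals (adjusted p = 0.113, edgeR). Hpcal4 did not pass the test (adjusted p = 0.175 and 0.214, edgeR), with log2 fold changes of -0.06 (95% interval -0.12 to 0.0064) in set A and -0.05 (95% interval -0.11 to 0.0056) in set B. Over the 24 libraries Ncald ran from 505.6 to 629.9 CPM and Hpcal4 from 227.4 to 321.6 CPM.

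**Figure D2:**
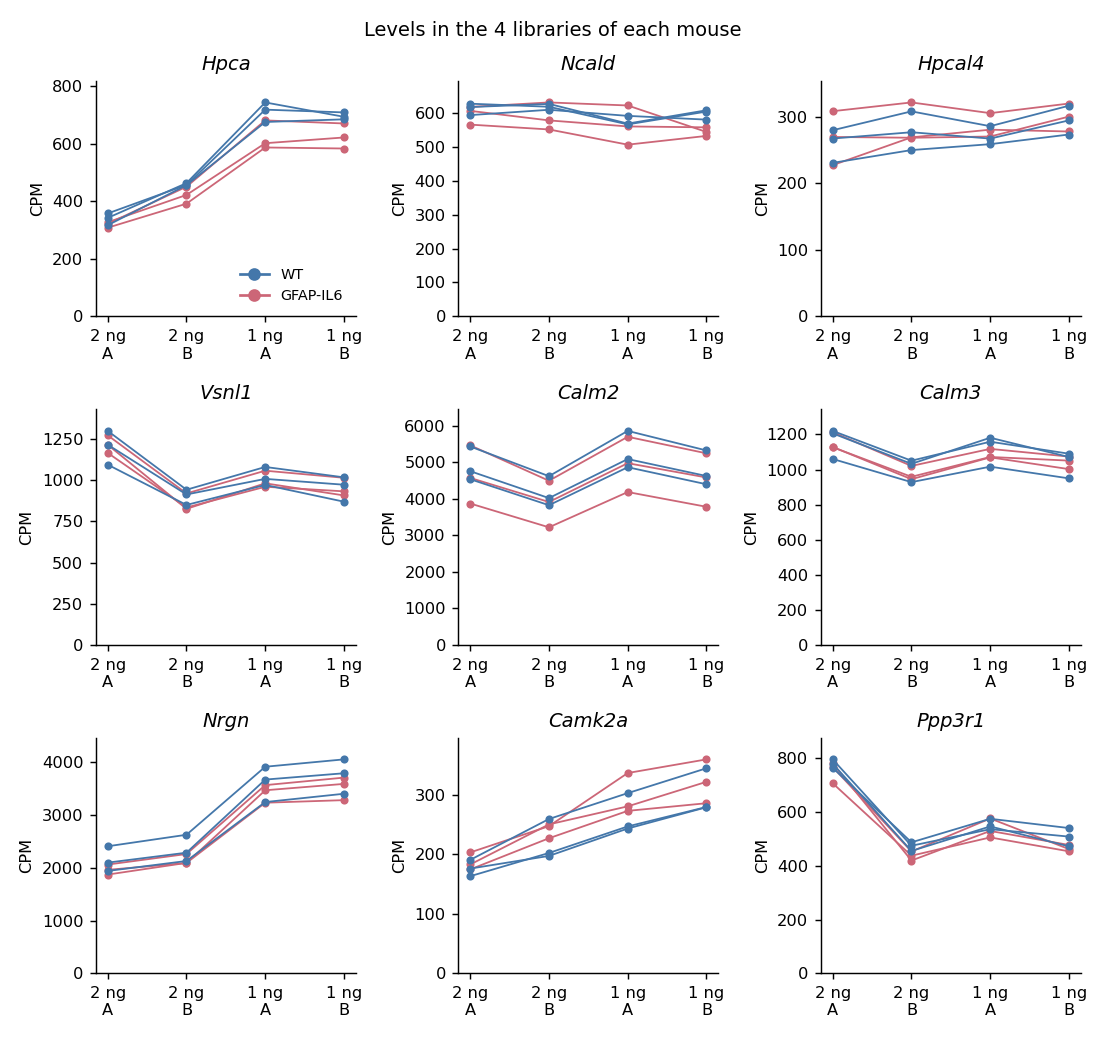
CPM of each gene in the 4 libraries of each mouse, ordered as 2 ng set A, 2 ng set B, 1 ng set A and 1 ng set B, with a line per mouse (blue WT, red GFAP-IL6) and axes from 0. Hpca, Nrgn and Camk2a are lower in both 2 ng columns, Ppp3r1 and Vsnl1 are highest in the 2 ng libraries of set A, and lines of the 2 genotypes run alongside each other.

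The difference between amounts was alike in both genotypes. The interaction of genotype and cDNA amount, fitted on the libraries of sets A and B summed per mouse and amount, was called for 0% of 13961 genes in either direction by edgeR, and for none by DESeq2, while 538 genes had an unadjusted p under 0.05 in edgeR. For the 9 genes it ran from -0.04 for Nrgn to 0.06 for Hpca, and the 95% intervals together spanned -0.10 to 0.13.

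Set A and set B differed from each other mainly in the 2 ng libraries. In set A, Ppp3r1 was 0.75 ± 0.02 (SE), Vsnl1 0.46 ± 0.02 (SE), Calm2 0.25 ± 0.01 (SE) and Calm3 0.23 ± 0.02 (SE) higher on the log2 scale than in set B, and each was higher in all 6 mice (adjusted p = 4.15e-67, 1.45e-52, 2.47e-41 and 6.12e-25, edgeR). Hpca at -0.41 ± 0.03 (SE), Camk2a at -0.34 ± 0.04 (SE) and Nrgn at -0.13 ± 0.01 (SE) were lower in all 6 mice (adjusted p = 6.60e-23, 7.86e-13 and 2.17e-14, edgeR). Ncald at 0.02 (95% interval -0.02 to 0.06) and Hpcal4 at -0.08 (95% interval -0.16 to -0.01) did not pass the adjusted test, and Hpcal4 passed it under 4 of the other settings. The background was 18.1% of 12089 genes called higher and 16.2% called lower in set A, and 78.7% of the 653 genes at these levels were called.

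With 1 ng the sets were closer. Of 12467 genes, 2.74% were called higher and 2.9% lower in set A. Calm2 at 0.14 ± 0.01 (SE), Ppp3r1 at 0.17 ± 0.03 (SE), Calm3 at 0.09 ± 0.02 (SE) and Vsnl1 at 0.08 ± 0.02 (SE) were called higher, and Camk2a at -0.15 ± 0.03 (SE), Hpcal4 at -0.10 ± 0.03 (SE) and Nrgn at -0.05 ± 0.01 (SE) were called lower in set A (adjusted p from 6.66e-21 for Calm2 to 0.0484 for Hpcal4, edgeR). Those are 7 of 9 genes beside 31.5% of the 653 genes at or above the lowest level of the 9. Hpca and Ncald were at 0.02 (95% interval -0.03 to 0.06) and -0.01 (95% interval -0.06 to 0.04). The Hpcal4 call was lost with DESeq2 (adjusted p = 0.109), with its size factors in edgeR (0.0515), without a filter on low counts (0.0765), after thinning to equal totals (0.591) and when any mouse but GFAP-IL6 mouse 1 was left out. The Nrgn call was lost after thinning (adjusted p = 0.276, edgeR).

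The dependence of the amount difference on the set was fitted in a contrast added after the data were seen. Its p-values are therefore not independent support for the differences between sets described above. For the 9 genes the log2 fold change of 2 ng against 1 ng in set A minus that in set B was 0.56 for Ppp3r1, 0.37 for Vsnl1, 0.13 for Calm3 and 0.10 for Calm2, and -0.44 for Hpca, -0.20 for Camk2a and -0.095 for Nrgn. These 7 passed at adjusted p-values from 5.99e-31 to 0.00116 (edgeR). Ncald at 0.01 (95% interval -0.05 to 0.08) and Hpcal4 at 0.0023 (95% interval -0.09 to 0.09) did not. Of 12758 genes, 6.22% were called with a positive and 5.64% with a negative value, and 58.7% of the 653 genes at these levels were called.

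**Figure D3:**
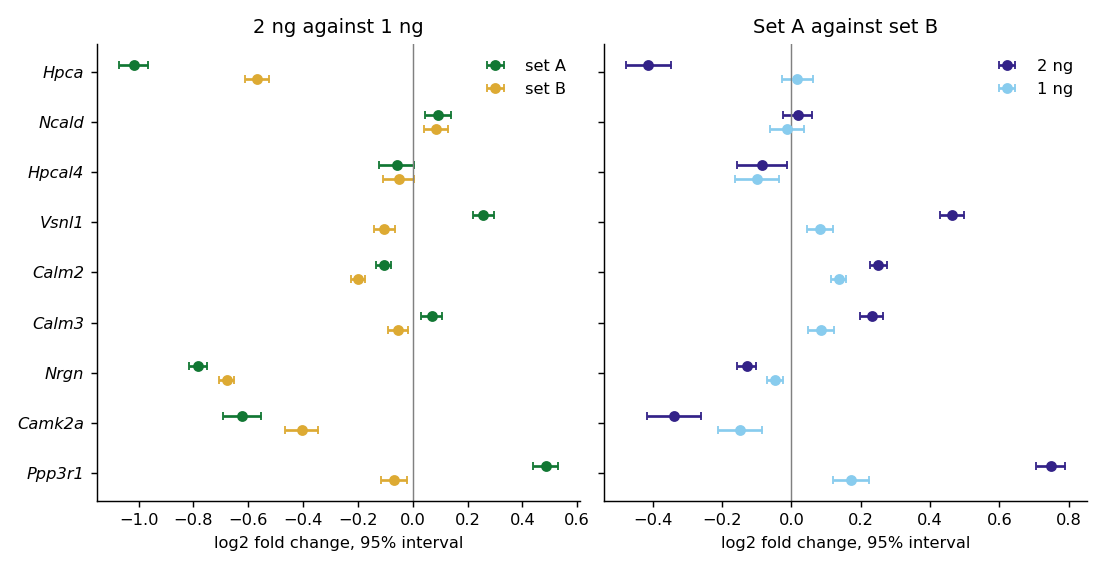
Log2 fold changes of the 9 genes with 95% intervals from edgeR, for 2 ng against 1 ng in sets A and B (left) and for set A against set B with 2 ng and 1 ng (right), over 6 mice in each fit. Hpca, Nrgn and Camk2a are left of 0 in both sets on the left, and Ppp3r1 stands out in set A (0.48) and in the contrast of sets with 2 ng (0.75).

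Other genes of calcium signalling also differed by cDNA amount in the same direction in both sets. Of 68 tested in both, 14 were lower and 4 higher with 2 ng, beside 7.07% lower and 4.89% higher among 12000 genes tested in both. Part of this goes with level, since 17.5% were lower and 13.0% higher among the 2500 genes at or above 74.9 CPM, the median of the 68, where 9 of 34 pathway genes were lower and 4 higher. Below it 4.33% of 9500 genes were lower and 2.75% higher, and 5 of 34 pathway genes were lower. No test was made of these shares. The lower ones with the smallest p-values were Pcp4, a small protein that binds calmodulin as neurogranin does (log2 fold change -0.58 in set A and -0.47 in set B), Camkk2, a kinase upstream of other calmodulin-dependent kinases (-0.51 and -0.26), and Cabp1, a calmodulin-like calcium sensor (-0.80 and -0.53). The higher ones with the smallest p-values were Calb1, the calcium buffer calbindin (0.14 and 0.15), Camk2n1, an inhibitor of CaMKII (0.17 and 0.09), and Camkk1, the other upstream kinase (0.33 and 0.19). The upstream kinases Camkk1 and Camkk2 thus went in opposite directions. Haemoglobin transcripts, the blood markers of these samples, also differed. All 4 were called lower with 2 ng in both sets, with a median log2 fold change of -1.59 (set A) and -1.07 (set B), further from 0 than any of the 9 genes. The 4 libraries of a mouse come from 1 RNA sample and so share its blood content. The part of blood in the values of the 9 genes was not tested.

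The base composition of the 3' ends ran in parallel with part of these differences. The last 500 nt of the transcript were 51.6% GC in Hpca, 51.4% in Calm3, 45.4% in Camk2a, Ncald and Hpcal4, 36.4% in Calm2, 35.6% in Ppp3r1 and 34.8% in Vsnl1, beside a median of 43.6% over 11790 genes, and Nrgn lay between Calm3 and Camk2a. Across genes, which are not independent replicates and share the 12 libraries of a contrast, Pearson's r of GC content with the log2 fold change was -0.40 for set A against set B with 2 ng, -0.23 with 1 ng, -0.20 for the amounts in set A and 0.08 in set B. In the contrast of sets with 2 ng the 3 genes with the lowest GC content, Ppp3r1, Vsnl1 and Calm2, were all higher in set A. Calm3 did not go with its GC content, since it was higher in set A while Hpca at nearly the same GC content was lower. Camk2a, Ncald and Hpcal4 had equal GC content and differed by -0.62, 0.09 and -0.06 between amounts in set A. The part of GC content in the differences was not tested.

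**Figure D4:**
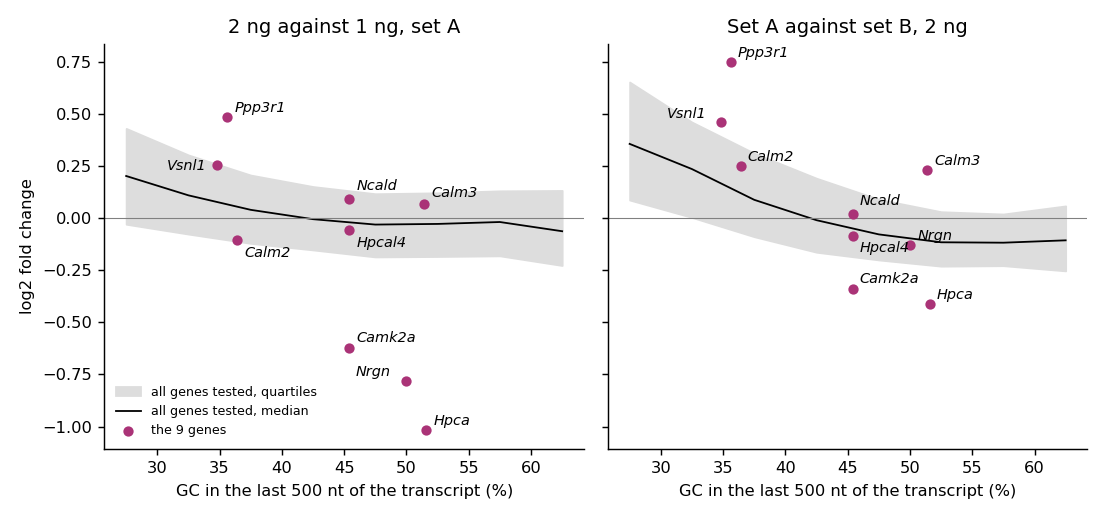
GC content of the last 500 nt of the transcript against the log2 fold change, for 2 ng against 1 ng in set A (left) and set A against set B with 2 ng (right). The line and the grey band give the median and quartiles of all genes tested in bins of GC content, and the points are the 9 genes. Hpca, Nrgn and Camk2a lie far below the band on the left, and Ppp3r1 lies above it in both panels.

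The spread over library kinds exceeded the spread over mice for most of the 9 genes. Taking mean log2 CPM, the range over the 4 kinds of library was wider than the range over the 6 mice for 6 genes, with 1.02 against 0.25 for Hpca, 0.82 against 0.32 for Nrgn, 0.77 against 0.35 for Camk2a and 0.75 against 0.18 for Ppp3r1. Vsnl1 (0.46 against 0.19) and Calm3 (0.23 against 0.19) were the other two. For Calm2 (0.35 against 0.50), Hpcal4 (0.18 against 0.31) and Ncald (0.09 against 0.17) the mice differed more than the kinds of library. Since every kind held all 6 mice, the comparison of genotypes was balanced over them.

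The 9 genes did not share 1 pattern. Of 3646 genes with a mean of at least 50 CPM, the non-members closest to the mean profile of the 9 over the 24 libraries were Tmem256, Ppp2r2c, Cox6c, Gabarapl1 and Hp1bp3, with root mean square differences of 0.06 to 0.08 on the log2 scale. The nearest of the 9 genes themselves was Calm3 at 0.15, in place 476, and the farthest was Hpca at 0.35, in place 3436.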

How the data were processed

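Frontal cortex RNA of 6 mice was measured in 24 3'Pool-seq libraries. The authors trimmed polyA stretches, aligned reads with STAR 2.4 to mm10 and counted them on GENCODE vM6 genes with featureCounts, and they deposited raw counts per gene and library, without normalization or division by gene length. The strand setting of the counting is not given in the sources used here, and the submitters' processing notes also name a human build, while the gene identifiers are of mouse. The mouse was the replicate, so the labels' 3 mice per genotype are the n. Nothing says that libraries of 1 set were made in separate reactions, so spread between reactions may not be in the p-values. Those for amount and set weigh the differences within mice against their spread over mice. Those for genotype weigh the difference between genotypes against the spread between mice.

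The 9 genes, the gene lists and the tests were chosen with earlier results of these data known. Counts were fitted across all genes with edgeR 4.0.16 in R 4.3.3 (quasi-likelihood test, TMM, filterByExpr), with Benjamini-Hochberg adjustment and a threshold of 0.05. Genotypes were compared after summing the 4 libraries of a mouse, and within each kind of library. Amounts and sets were compared with the mouse as a block. Same-numbered WT and GFAP-IL6 mice did not deviate together (correlations -0.07 to 0.0045), whereas libraries of 1 mouse did (0.29 to 0.50 between amounts, 0.17 to 0.38 between sets), since they come from the same RNA. The contrast of amount by set was added after the data were seen. Positions, coding sequences and GC content came from GENCODE vM21 on mm10, and 3' ends were compared with BLAST 2.17.0. Alternatives were DESeq2 1.42.0, its size factors, no filter, at least 10 counts in every library, thinning to equal totals, the replicate block added or removed, leaving out each mouse, and limma 3.58.1 (voom) on all libraries for genotype.

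Beside the 9 genes, the text names by rule the pathway genes with the smallest p among those called in the same direction in both sets (up to 3 per direction), those called between genotypes (there were none), the 5 genes nearest to the mean profile of the 9, and Il6 and Gfap. Reads carry no molecular identifiers.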

Additional observations from a re-analysis of the deposited data

Results flagged for a closer look

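For 7 of the 9 genes the difference between 2 ng and 1 ng of cDNA was not alike in sets A and B, by edgeR's test of the interaction over 6 mice. Of the 653 genes at or above the lowest level of the 9, 58.7% were called as well. The contrast was added after the data were seen. The log2 fold change in set A minus that in set B was -0.44 for Hpca (SE 0.04, adjusted p = 2.05e-21), 0.37 for Vsnl1 (SE 0.03, adjusted p = 2.46e-24), 0.56 for Ppp3r1 (SE 0.04, adjusted p = 5.99e-31) and -0.20 for Camk2a (SE 0.05, adjusted p = 0.00116). It was smaller for Nrgn at -0.095 (SE 0.02, adjusted p = 0.000517), Calm2 at 0.10 (SE 0.02, adjusted p = 4.64e-06) and Calm3 at 0.13 (SE 0.03, adjusted p = 9.48e-05). DESeq2 called the same number of the 9 genes. The Camk2a call was lost when the libraries were thinned to equal totals (-0.11, adjusted p = 0.437) and without GFAP-IL6 mouse 3 (-0.17, adjusted p = 0.0516). Without the mouse as a block, Nrgn, Calm2, Calm3 and Camk2a lost their calls (adjusted p = 0.741, 0.787, 0.481 and 0.451, edgeR). What separates sets A and B is not given in the labels, and a difference between sets and one between single reactions cannot be told apart.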

How the results depend on the processing

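Of 540 values of single genes in the contrasts of amount, set and amount by set under the alternatives, 480 kept their direction and side of the threshold, 41 lost and 4 gained the call, and 15 changed sign. Between genotypes, the numbers of genes called in the summed libraries were 462 without a filter on low counts, 545 with limma on all libraries and 146 to 321 when 1 mouse was left out, against 263. In the 2 ng libraries of sets A and B and the 1 ng libraries of sets A and B they were 199, 200, 214 and 228 without the filter, 71, 75, 79 and 77 after thinning, and 57 to 140, 59 to 160, 63 to 169 and 54 to 162 without 1 mouse. At least 10 counts in every library gave 79 and 72 in the 2 ng libraries of sets A and B, and the replicate block gave 83 in those of set B. The lowest numbers came without GFAP-IL6 mouse 3. Between amounts, set A kept 2590 genes after thinning, and set B 1391 after thinning and 1551 with DESeq2. Without the replicate block, which leaves the differences between mice in the error, 2213 genes and 5 of the 9 were called in set A, 770 and 3 in set B, 2567 genes between sets with 2 ng, 92 and 0 of the 9 between sets with 1 ng, and 347 and 3 for amount by set. Hpca, Nrgn and Camk2a were called in both sets under every alternative. Between sets with 1 ng, thinning left 322 genes, and for amount by set 802. Genotype by amount gave 1 gene without the filter and 0 to 1 without 1 mouse.

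Sign changes were near 0. Without 1 mouse, Ncald ran from -0.116 to 0.035 between genotypes in the 1 ng libraries of set A, from -0.0026 to 0.028 between sets with 2 ng and from -0.044 to 0.0069 between sets with 1 ng, and Hpca from -0.00058 to 0.031 between sets with 1 ng. For amount by set without 1 mouse, Hpcal4 ran from -0.036 to 0.024 and Ncald from -0.011 to 0.040. In that contrast Hpcal4 was -0.0026 with DESeq2, -0.0030 with its size factors, -0.042 after thinning and -0.011 without the replicate block, where Ncald was -0.0011. The causes of these changes were not tested.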
